A study of Mus musculus with 8 samples.

Results

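Desmosomes are the adhesive junctions that tie the keratin filaments of neighbouring epithelial cells together. Desmosomal cadherins, the desmogleins and desmocollins, bind each other between the cells. Inside the cell the armadillo proteins plakoglobin and plakophilin join the cadherin tails to desmoplakin, which holds the filaments. In the genital tubercle, from which the penis or clitoris develops, these junctions belong to the surface epithelium and to the epithelium of the urethral plate.

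The desmosome genes examined were Dsp, Jup, Pkp1, Pkp2, Pkp3, Dsg2, Dsg3, Dsc2, Dsc3 and Perp, 10 genes chosen by name. Of the 45101 probe sets of the array table, 22 carried exactly 1 of these symbols in the platform annotation, and they covered 9 of the genes. Dsg3, a desmoglein of stratified epithelium, had no such probe set and was not analysed here. Dsg2 had 6 probe sets, Pkp2 had 4, Dsp had 3, Pkp3, Dsc2 and Dsc3 had 2 each, and Jup, Pkp1 and Perp had 1 each.

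RNA came from microdissected tubercle regions of 4 male and 4 female mouse embryos, strain FVB/N, at embryonic day 14 (Theiler stage 22); samples were not pooled, and the labels name no mutation and no agent. It was amplified in 2 rounds and hybridized to Affymetrix MOE430 arrays, 1 array for each sample. Nothing in the labels ties the samples to litters or processing days, so the p-values reflect only how these samples vary, which could be partly technical. The number of arrays limits the precision. Intensities are linear. A difference is the male mean minus the female mean of log2(intensity + 16), given with its standard error (SE) from limma. Intensities of different probe sets cannot be ranked against each other, because each probe set has its own response.

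Facts of the arrays that touch the results are given first. The Y-linked gene Eif2s3y read 48.4 ± 20.1 in females and 5480 ± 950 in males (SD, n = 4 each), on the side of its label in every sample. Xist, which coats the inactive X chromosome, read 32465 to 35816 in females, 16036 in male replicate 3 and 230.0 to 619.6 in the other males. The 18S ribosomal RNA control was at 13215 ± 4445 on the female arrays and at 26742 ± 5679.7 on the male arrays, without overlap (two-sided exact permutation p = 0.0286, which is the lowest possible with 4 against 4; 0.0476 adjusted over 5 array measures). The ratio of the 3′ to the 5′ beta-actin control, which depends on how far the amplified RNA reaches, was 6.47 to 8.54 in females, 7.94 and 9.04 in male replicates 2 and 4, and 5.30 and 5.60 in male replicates 1 and 3. The labelled tissue was checked against Hoxd13, a homeobox factor of distal appendages, which read 36381 ± 1956 in females and 29770.0 ± 1276.4 in males. Hoxd13 was thus lower in males, by -0.29 ± 0.06 (limma adjusted p = 0.00258). Taking each gene on its brightest tested probe set, limma called 28.2% of all tested genes lower in males and 14% higher. Of 5 tested genes of tubercle identity, limma called 4 lower in males and 0 higher (1 at an unadjusted p under 0.05). The others called were Pitx1 (-1.03 ± 0.16), Shh (-0.39 ± 0.11) and Isl1 (-0.33 ± 0.07, with another probe set of the opposite sign). Relative to the epithelial markers 1 of the 5 was lower and 1 higher. The part of this shift in the desmosome differences was not tested. The epithelial marker Epcam, an adhesion molecule, read 11356 ± 830.5 in females and 11531 ± 562 in males.

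Upstream sequence was on hand for 2 of the genes, Jup and Dsp, in a RefSeq promoter table (GRCm38.p6). These were also 2 genes whose probe sets moved in opposite directions, so the 200 bases from 250 to 51 bases before each annotated start are shown, 5′ to 3′ on the gene's strand. Jup lies on the minus strand (chr11:100397841-100398040) and Dsp on the plus strand (chr13:38151044-38151243). Capitals mark the motifs found.
Jup: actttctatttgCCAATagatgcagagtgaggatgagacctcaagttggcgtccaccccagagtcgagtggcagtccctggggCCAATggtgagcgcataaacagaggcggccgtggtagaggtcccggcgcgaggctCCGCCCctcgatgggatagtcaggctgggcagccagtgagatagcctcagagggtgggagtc
Dsp: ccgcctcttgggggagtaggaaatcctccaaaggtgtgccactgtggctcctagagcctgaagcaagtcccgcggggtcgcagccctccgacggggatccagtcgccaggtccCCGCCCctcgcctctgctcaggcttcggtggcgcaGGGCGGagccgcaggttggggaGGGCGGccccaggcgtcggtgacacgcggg

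The motifs searched on both strands were the GC box GGGCGG, the CCAAT box CCAAT, the TATA box TATAAA and the E2 box CACCTG. The Dsp window held 3 GC boxes and no CCAAT box, and the Jup window held 1 GC box and 2 CCAAT boxes. Neither window held TATAAA or CACCTG, and no matches overlapped. Of 32851 promoter windows of this length, 24.6% held a GC box, 28.4% a CCAAT box, 9.14% a TATA box and 14.4% an E2 box. The G and C content was 71.0% for Dsp and 60.5% for Jup, beside a median of 51.5%. A match is a description of these letters.

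The comparison of male and female tubercles gave calls in both directions among the desmosome genes. On their brightest probe sets, the desmocollin genes Dsc2 and Dsc3 were called higher in males. The desmoglein gene Dsg2, the plakoglobin gene Jup and the plakophilin gene Pkp2 were called lower. Dsg2 was called on only 1 of its 4 tested probe sets, and the bright Dsc3 call ended when certain single arrays were left out. The desmoplakin gene Dsp rose modestly on 1 probe set. Pkp1, Pkp3 and Perp did not pass the test. Of the 22 probe sets, 16 had a mean log2 value at or above the array's median of these means and were tested, and 6 lay below it. Of the 16, limma called 4 male-higher and 3 female-higher at a limma adjusted p under 0.05. Over the whole array 40.5% of the tested probe sets were called, 18.7% with males above and 21.9% with females above, so the share of desmosome probe sets called was near that of the array. Male and female arrays were fully separated for 4 probe sets with males above and 4 with females above, beside 37.1% of all tested probe sets, 15.8% with males above and 21.2% with females above. Counted as genes on their brightest tested probe set, 2 of 9 were higher in males and 3 higher in females, beside 14% and 28.2% of all tested genes. The median difference of the 9 genes was 0.09, beside -0.12 over all tested genes, and their median absolute difference was 0.34, beside 0.32.

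**Figure D1:**
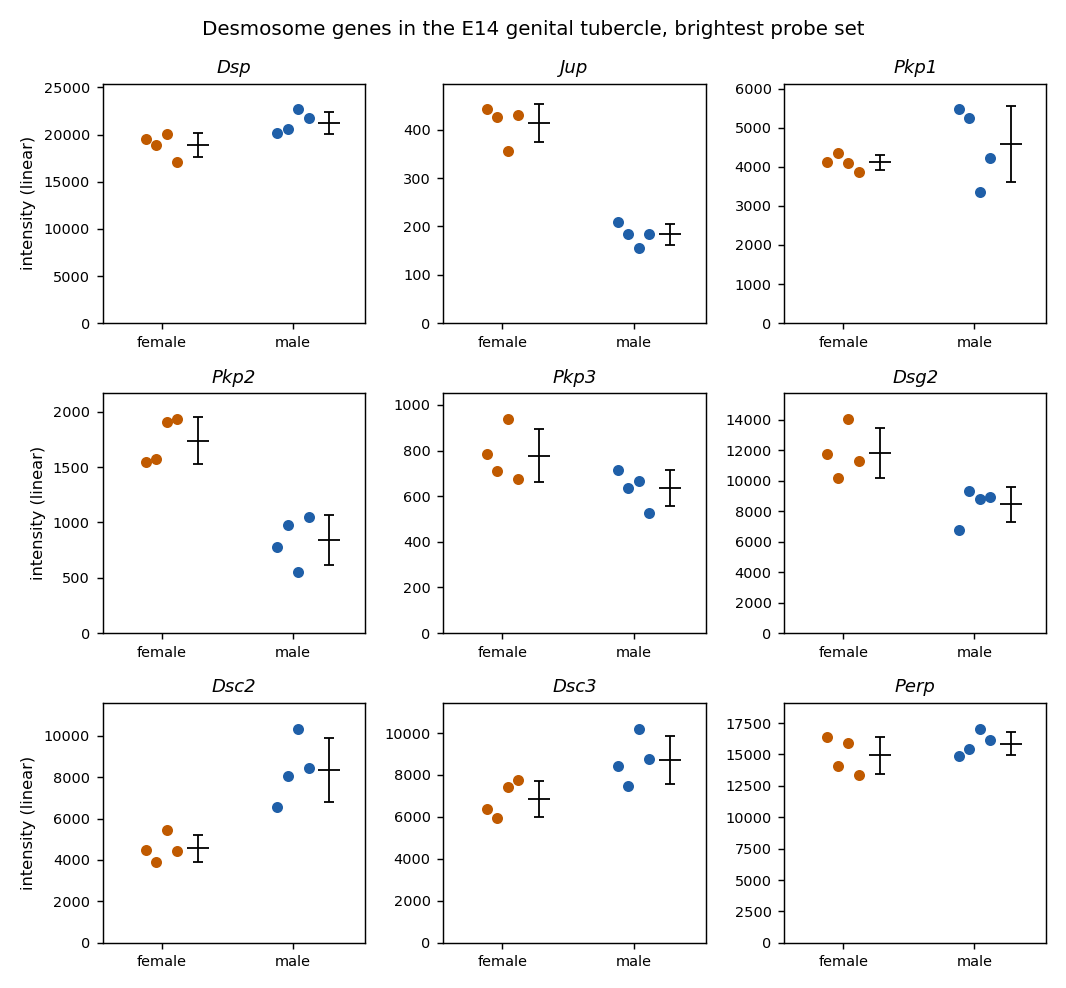
Linear intensity of the brightest probe set of each of 9 desmosome genes, with 1 point for each array in the order of replicates 1 to 4, and the mean with SD beside the points (n = 4 per sex; each axis starts at 0 and has its own scale). The male and female points of Jup, Pkp2, Dsg2, Dsc2 and Dsp do not overlap, and those of Pkp1, Pkp3, Dsc3 and Perp do.

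**Figure D2:**
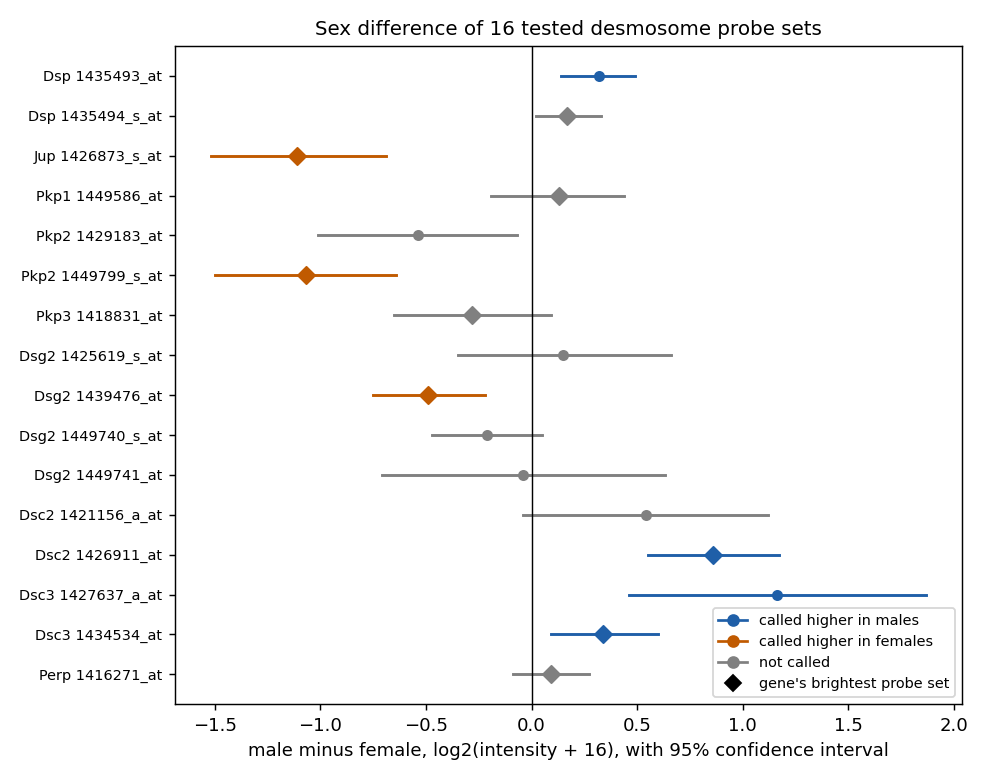
Male minus female difference on the log2(intensity + 16) scale of the 16 tested probe sets, with the 95% confidence interval of the limma fit; diamonds mark the brightest probe set of each gene and colours the call. The differences of the called probe sets run from -1.11 for Jup to 1.16 for the dim Dsc3 probe set.

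Among the desmosomal cadherins, Dsc2 was the clearest gene higher in males. Desmocollin 2 is the widely expressed desmocollin of simple and stratified epithelia. Its bright probe set (1426911_at) read 4504.5, 3881, 5427 and 4439 on female replicates 1 to 4 and 6547, 8073, 10324 and 8442 on male replicates 1 to 4. Every male array lay above every female array, with male replicate 3 the highest. The means were 4563 ± 640 and 8347 ± 1553 (SD, n = 4 each), a difference of 0.86 ± 0.14 (SE, limma adjusted p = 0.000711), and the call held without each single array (highest limma adjusted p = 0.00269). The dimmer Dsc2 probe set (1421156_a_at) read 304.0, 350.2, 230.1 and 261.6 in females and 619.1, 346.6, 537.8 and 264.7 in males. There the sexes overlapped, because male replicates 2 and 4 lay within the female range, and the difference of 0.54 ± 0.27 did not pass (limma adjusted p = 0.123).

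Dsc3, which encodes the desmocollin of basal and stratified epithelial layers, rose on both of its probe sets. The bright probe set (1434534_at) read 6369, 5928, 7435 and 7742 in females and 8425, 7466, 10193 and 8766 in males. The ranges overlapped, since male replicate 2 lay below female replicate 4. The difference was 0.34 ± 0.12 (limma adjusted p = 0.0345). The call ended without female replicate 1 (0.0881), female replicate 2 (0.101), male replicate 3 (0.103) or male replicate 4 (0.0652).

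The dim Dsc3 probe set (1427637_a_at) read 343.2, 277.4, 277.8 and 407.2 in females and 1152, 505.6, 1222 and 422.2 in males. All males lay above all females, but male replicates 1 and 3 stood far above male replicates 2 and 4. The difference was 1.16 ± 0.32 (limma adjusted p = 0.013). Male replicates 1 and 3 were the arrays with the lowest beta-actin 3′ over 5′ ratios, and they also held the highest values of the dim Dsc2 probe set. Leaving out these highest arrays lowers the differences of the dim probe sets by construction, so that fit does not bear on the ratio. Without both arrays the difference fell to 0.50 ± 0.23 (limma adjusted p = 0.121) for this Dsc3 probe set and to 0.09 ± 0.25 (0.799) for the dim Dsc2 probe set. The bright Dsc3 probe set also lost its call (0.24 ± 0.13, 0.166), while the bright Dsc2 probe set kept 0.86 ± 0.13 (0.00107). With the beta-actin ratio as a covariate, chosen after seeing the data, the dim Dsc3 difference was 0.97 ± 0.21 (0.00271). The same male arrays had the highest 18S levels, 28985 and 33634, and with the 18S covariate the dim Dsc3 difference was 0.56 ± 0.54 (0.596).

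**Figure D3:**
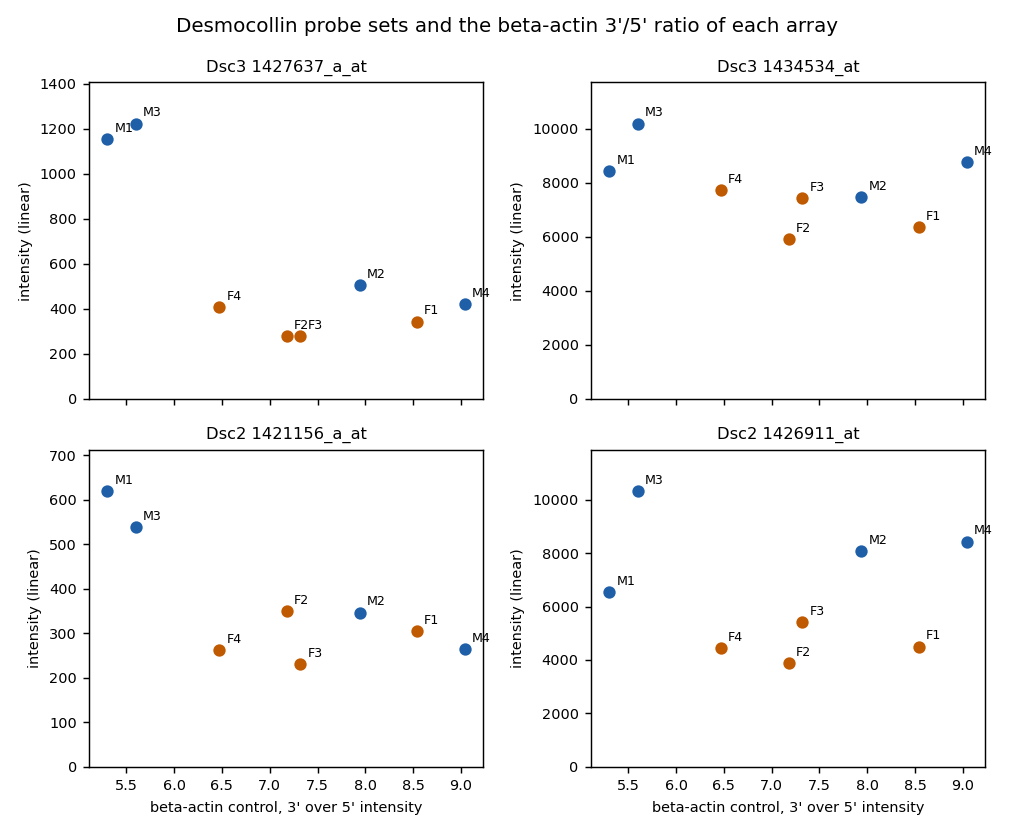
Linear intensity of the dim (left) and bright (right) probe sets of Dsc3 (top) and Dsc2 (bottom) against the 3′ over 5′ intensity ratio of the beta-actin control, 1 point for each array (F female, M male, with the replicate number). On the dim probe sets male replicates 1 and 3, at ratios of 5.30 and 5.60, lie apart from the other arrays; on the bright Dsc2 probe set all 4 males lie above the females.

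Dsg2, which encodes the desmoglein found in all desmosome-bearing tissues, was lower in males on its brightest probe set. That probe set (1439476_at) read 11763, 10206, 14044.5 and 11279.7 in females and 6758, 9294, 8775 and 8940.2 in males. No male array reached the lowest female array. The means were 11823 ± 1618 and 8442 ± 1143, a difference of -0.49 ± 0.12 (limma adjusted p = 0.00741). The call held without each single array (largest limma adjusted p of these fits 0.0279, female replicate 3 left out).

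The other Dsg2 probe sets did not pass. The second bright one (1449740_s_at) read 7493 to 10121 in females and 6326 to 8271 in males, with a difference of -0.21 ± 0.12 (limma adjusted p = 0.183). It was called lower under 2 of 22 alternatives, median centring (-0.42 ± 0.13, 0.02) and array weights (-0.33 ± 0.12, 0.0368). Relative to the epithelial markers it gave 0.18 ± 0.14 (0.294). Dimmer probe sets gave 0.15 ± 0.23 (1425619_s_at, 0.625) and -0.04 ± 0.31 (1449741_at, 0.922). The remaining Dsg2 probe sets lay below the filter, with 49.0 to 123.8 in females and 13.6 to 121.2 in males on 1426153_a_at and 39.2 to 152.9 and 96.7 to 155.9 on 1460380_at. In the main setting the Dsg2 call thus rests on 1 of 4 tested probe sets, and the mean of the 4 gave -0.15 ± 0.12 (limma adjusted p = 0.346). Relative to the mean of the epithelial markers, a setting chosen after seeing the data, the brightest Dsg2 probe set gave -0.10 ± 0.12 (0.505).

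On chromosome 18 the reference annotation places Dsc3, Dsc2, Dsc1, Dsg1c, Dsg1a, Dsg1b, Dsg4, Dsg3 and Dsg2 next to each other in this order. The cadherin genes at the Dsc end (Dsc3 and Dsc2) were higher in males, and the gene at the other end (Dsg2) was lower on its brightest probe set. Between them, Dsc1 and Dsg1b, which serve the outer layers of the epidermis, lay below the filter. Dsc1 read 93.9 ± 30.5 in females and 173.1 ± 62.5 in males, and Dsg1b 55.7 ± 42.8 and 98.3 ± 13.2. Dsg1a, a desmoglein of differentiated epidermis, passed the test with 248.4 ± 106.7 and 465.9 ± 134.6 (0.94 ± 0.34, limma adjusted p = 0.0419), although its ranges overlapped. That call held under 9 of 21 alternatives, with differences of 0.59 to 1.33. It ended with the replicate block (limma adjusted p = 0.082), quantile normalization (0.0967), median centring (0.101), no filter (0.0968), no variance trend (0.0606) and the 18S covariate (0.238). It also ended without female replicate 3 (0.0757), female replicate 4 (0.0932, with a difference of 0.59), male replicate 2 (0.0687), male replicate 3 (0.0927), male replicate 4 (0.104) or male replicates 1 and 3 together (0.055).

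Among the armadillo proteins of the plaque, Jup and Pkp2 were lower in males by about the same amount. Jup encodes plakoglobin, which binds desmosomal cadherins and also sits in adherens junctions. Its only probe set (1426873_s_at) read 442.0, 426.2, 354.8 and 430.8 in females and 208.2, 185.3, 155.8 and 185.3 in males. The sexes were far apart, and both the lowest female array and the lowest male array were replicate 3. The means were 413.5 ± 39.6 and 183.7 ± 21.5, a difference of -1.11 ± 0.19 (limma adjusted p = 0.000935). The call held without each single array (largest limma adjusted p of these fits 0.00413, female replicate 1 left out). The suffix of this probe set marks probes that may be shared between transcripts, and the male mean log2 value of 7.63 lay below the filter at 7.77, so Jup passed the filter through the females.

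Pkp2, the plakophilin of simple epithelia and of the heart, read 1547, 1574, 1907.5 and 1934 in females and 778.2, 979.2, 549.7 and 1052 in males on its brightest probe set (1449799_s_at). All males lay below all females. This probe set has the same suffix as that of Jup, so its probes may also be shared between transcripts. That suffix is carried by 5 of the 16 tested desmosome probe sets. The means were 1741 ± 209 and 839.7 ± 225.3, a difference of -1.07 ± 0.20 (limma adjusted p = 0.00143), and it was called without each single array (highest limma adjusted p = 0.00654). The second tested Pkp2 probe set (1429183_at) read 353.0 to 475.8 in females and 195.8 to 331.5 in males. Its ranges did not overlap either, but the difference of -0.54 ± 0.22 missed the threshold (limma adjusted p = 0.0636). It was called under 4 of 21 alternatives. These were quantile normalization (-0.70 ± 0.25, 0.0394), median centring (-0.76 ± 0.24, 0.0214), no variance trend (0.0415) and leaving out male replicate 4 (0.0465). On both probe sets male replicate 3 was the lowest array. Below the filter, 1460511_at read 29.6 to 105.9 in females and 76.6 to 113.6 in males, and 1420259_at read 4.52 to 10.9 and 6.53 to 11.6.

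Pkp1 and Pkp3 did not pass. Pkp1, the plakophilin of suprabasal stratified epithelium, read 4119, 4362, 4086 and 3878 in females and 5469.9, 5239, 3358 and 4229 in males. The males spread around the females, with replicates 1 and 2 above and replicate 3 below all of them. The difference was 0.13 ± 0.14 with an interval of -0.19 to 0.44 (limma adjusted p = 0.503). Relative to the epithelial markers, which moves the median difference of all tested probe sets to 0.38, Pkp1 gave 0.52 ± 0.15 and passed (0.0131). Pkp3, which is expressed in most epithelia, read 784.9, 710.8, 937.9 and 674.2 in females and 716.1, 636.8, 665.0 and 525.4 in males. Its ranges overlapped and the difference was -0.28 ± 0.17, with an interval of -0.65 to 0.09 (limma adjusted p = 0.204). With each array centred on its median it was -0.49 ± 0.18 and passed (0.0358). The second Pkp3 probe set (1418832_at) was at 10.9 to 12.6 in females and 5.85 to 16 in males.

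Dsp encodes desmoplakin, the plakin that anchors keratin filaments in the plaque. The tested probe set 1435493_at read 15141, 15189.7, 16690.2 and 16538 in females and 18501, 18162, 22225 and 20455 in males. All males lay above all females, with male replicate 3 the highest. The difference was 0.32 ± 0.08 (limma adjusted p = 0.00779), with means of 15889.7 ± 839.1 and 19836 ± 1886. The call held without each single array (largest limma adjusted p of these fits 0.0257, female replicate 1 left out).

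The brighter Dsp probe set (1435494_s_at) read 17087 to 20119 in females and 20127 to 22686 in males, so the ranges touched without overlapping. Its difference of 0.17 ± 0.07 did not pass (limma adjusted p = 0.0738), and was -0.04 with each array centred on its median. The other Dsp probe set (1427610_at) did not reach the filter and gave 77.3 ± 14.6 for females against 79.9 ± 16.5 for males. Perp, a tetraspan membrane protein of desmosomes and a target of the epithelial factor p63, read 16366, 14056, 15903 and 13355 in females and 14862, 15446, 17031 and 16145 in males. The sexes overlapped and the difference was 0.09 ± 0.08, with an interval of -0.09 to 0.27 (limma adjusted p = 0.398). Relative to the epithelial markers Perp gave 0.48 ± 0.09 and passed (0.000773). That setting, chosen after seeing the data, moves the median difference of all tested probe sets to 0.38.

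Differences between the genes within an array are not changed by a constant added to all log2 values of the array. They can change with quantile normalization or another pseudocount. For example, the Jup difference was -1.11 in the main setting, -1.28 after quantile normalization and -0.95 with a pseudocount of 64. For each of the 36 pairs of the 9 genes, the log2 value of one brightest probe set minus the other was compared between the sexes. The sexes did not overlap for 22 pairs, and these had the smallest p that the design allows (exact permutation test, two-sided, p = 0.0286, adjusted over the pairs 0.0468). The pairs share genes and arrays and are not independent, and the genes were known to differ from earlier results. Pairs of all tested genes were not examined, so the count of 22 cannot be read as particular to desmosome genes. The male mean of Jup lay below the filter, which limits the precision of its pairs.

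The Dsg2 minus Dsc2 value moved by -1.35 ± 0.09 (SE), from 1.34 to 1.39 on the female arrays to -0.23 to 0.20 on the male arrays. Dsp moved against Jup by 1.28 ± 0.16 and against Pkp2 by 1.24 ± 0.26, and Jup against Dsc2 by -1.97 ± 0.27. The pair Jup and Pkp2 moved by -0.03 ± 0.22 against each other (exact permutation p = 0.886, two-sided), and Dsp and Perp by 0.08 ± 0.03 (0.0857). Dsc2 and Dsc3, which rose together, still moved apart by 0.52 ± 0.13.

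**Figure D4:**
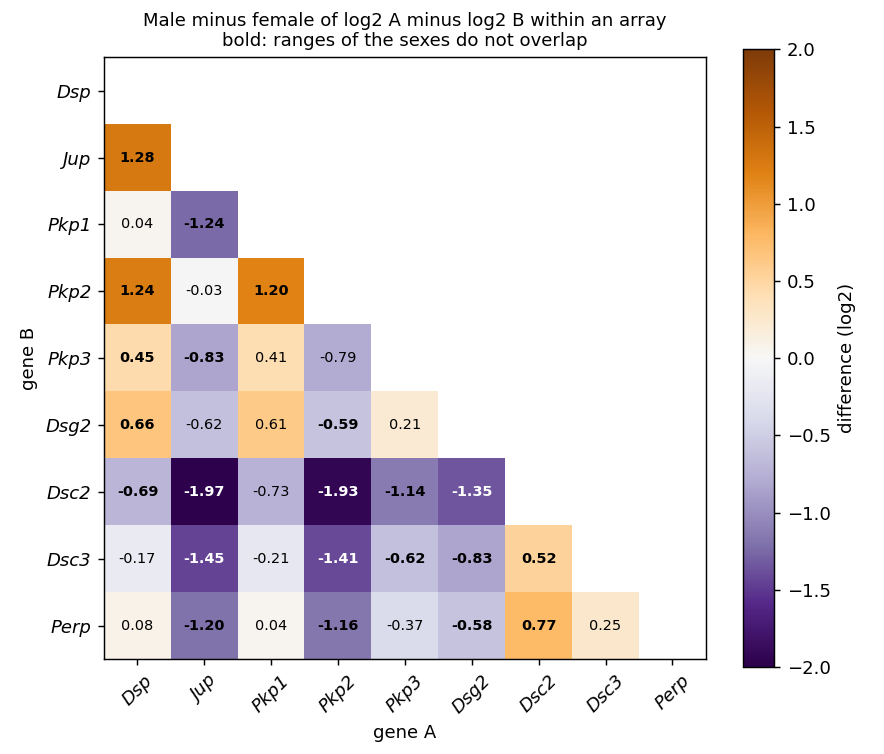
Male minus female difference of the log2 value of gene A (columns) minus that of gene B (rows) within an array, for 36 pairs of 9 desmosome genes; bold marks the 22 pairs whose male and female arrays do not overlap. The Jup and Pkp2 columns are negative against Dsc2 (-1.97 and -1.93) and near 0 against each other (-0.03).

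Within a sex, no single array was highest for all 9 genes. Female replicate 3 was highest for Dsp, Pkp3, Dsg2 and Dsc2 and lowest for Jup. Male replicate 3, the array with Xist signal, was highest for Dsp, Dsc2, Dsc3 and Perp and lowest for Jup, Pkp1 and Pkp2. Without male replicate 3 the brightest probe sets gave 0.75 for Dsc2, -1.04 for Jup, -0.89 for Pkp2 and -0.51 for Dsg2, all still called. Dsc3 (0.26, limma adjusted p = 0.103) was then no longer called.

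The other desmosomal and plaque genes numbered 10, of which 8 were on the array and 4 were tested. Of these 2 were called higher in males by limma and 0 higher in females (1 at an unadjusted p under 0.05). The shares of all tested genes were 14% higher in males and 28.2% higher in females. Besides Dsg1a, Pkp4, an armadillo protein related to the plakophilins that is also found in adherens junctions, rose from 15751 ± 1898 to 25391 ± 2420.5 (0.69 ± 0.09, limma adjusted p = 0.000264). Periplakin (Ppl), a linker of the cornified envelope, differed by -0.16 ± 0.15, and Kazn, which binds periplakin, by -0.60 ± 0.26; neither passed.

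Desmosomes anchor keratins, and those of a list without Krt1 and Krt10 were mostly lower in males where they differed. Of 8 tested in this list, 4 were called lower in males and 0 higher by limma (1 at an unadjusted p under 0.05), with a median of -0.61. Krt10, counted below with stratified epidermis, went the other way (1.36 ± 0.14, limma adjusted p = 6.78e-05). Krt1, of the same list, gave -0.49 ± 0.24 (0.127). Among all tested genes 28.2% were called lower in males and 14% higher. Krt8 and Krt18, the pair of simple epithelium, fell from 4190 ± 795 to 1896 ± 444 (-1.15 ± 0.19) and from 1474 ± 241 to 777.1 ± 98.5 (-0.90 ± 0.16). Krt14, of basal cells, differed by -0.92 ± 0.17 (another of its probe sets had the opposite sign and was not called in that direction). For the 8 keratins of the list, centring on the array median gave 6 lower and 0 higher, and the epithelial reference 4 lower and 1 higher. Krt8 and Krt18 are themselves part of that reference.

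For the lists of this paragraph, the shares of all tested genes were 28.2% lower in males and 14% higher. Of 10 tested adherens junction genes 2 were lower in males, Vcl (-0.45 ± 0.07) and Nectin2 (-0.57 ± 0.20). Here limma called 0 higher in males (0 also at an unadjusted p under 0.05). The epithelial cadherin Cdh1 differed by -0.07 ± 0.10 (limma adjusted p = 0.575). Relative to the epithelial markers, which include Cdh1, 7 adherens junction genes were higher in males and 0 lower, so their direction depends on the scaling. Of 6 tested genes of the hemidesmosome, which ties basal cells to the basement membrane, 4 were lower in males and 0 higher by limma (0 also at an unadjusted p under 0.05). Among them were the linker genes Plec (-0.64 ± 0.15) and Dst (-0.61 ± 0.13) and the laminin gene Lama3 (-0.58 ± 0.15). The last of the 4, the integrin gene Itga6, gave -0.30 ± 0.09, while its second tested probe set passed the test with the opposite sign. With the epithelial reference 0 of the 6 were lower and 1 was higher.

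Of 12 tested epithelial transcription factors, 3 rose in males and 1 was lower, beside 14% and 28.2% of all tested genes. Trp63, which encodes the p63 factor of stratified epithelia, rose from 16305.5 ± 1321.7 to 22769 ± 2033 (0.48 ± 0.08, limma adjusted p = 0.00109). Grhl1, a grainyhead factor that in skin acts on desmosomal cadherin genes, rose from 626.4 ± 120.6 to 1479 ± 148 (1.23 ± 0.17, limma adjusted p = 0.000283), and Tfap2c by 0.43 ± 0.14, with both other tested Tfap2c probe sets of the opposite sign. Klf4 was lower (-0.29 ± 0.06). Centring on the median turned the split of this list to 1 higher and 4 lower. Of 5 tested genes of stratified epidermis, Krt10, a suprabasal keratin, rose from 3677 ± 725 to 9372 ± 926.5 (1.36 ± 0.14) and the other 4 did not pass.

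These junction and epithelial lists together held 77 gene symbols, some of them older names of genes also listed under current names. Of these, 56 were tested, 6 were higher in males and 14 higher in females. This was 35.7% of the tested genes, beside 42.2% of all tested genes, with a median of -0.25 beside -0.12. In whole tissue, fewer epithelial cells and less RNA per cell cannot be told apart. Of 14 tested epithelial markers 5 were lower in males and limma called 0 higher (0 also at an unadjusted p under 0.05). Among all tested genes 28.2% were lower in males and 14% higher. The summed intensity of these epithelial markers was 49596 to 50733 in females and 40962 to 45320 in males. In this and the sums below, bright probe sets weigh most. Epcam differed by 0.02 ± 0.08 and the marker Rab25 lay below the filter.

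Markers of other cell types moved as well, beside 14% of all tested genes higher in males and 28.2% lower. Of 7 tested skeletal muscle markers 5 rose in males and 0 were lower by limma (0 also at an unadjusted p under 0.05), with a summed intensity of 6145 to 15680 in females and 17910 to 27056 in males. Of 7 tested endothelial markers 3 rose and 1 was lower. These were Kdr (1.16 ± 0.19), Tek (0.93 ± 0.16) and Pecam1 (0.66 ± 0.21) against Cdh5 (-0.57 ± 0.11), the endothelial cadherin whose tail binds plakoglobin. Their summed intensity was 9804 to 11308 in females and 11449 to 13794 in males. Of 8 mesenchyme markers 2 rose (Lum, 0.57 ± 0.14, and Col1a1, 0.47 ± 0.11) and 2 were lower (Vim, -0.39 ± 0.07, and Twist1, -0.31 ± 0.09), with summed intensities of 191420 to 212347 and 190806 to 200449. A second Col1a1 probe set passed the test with the opposite sign, and both other Vim probe sets had the opposite sign. No tested marker of these lists was at 0 on any array. The part of these cell types in the desmosome differences was not tested.

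The 18S control moved with sex. With its level as a covariate limma called 0 of 16 desmosome probe sets (2 at an unadjusted p under 0.05), and 1.84% of all tested probe sets in place of 40.5%. The fitted differences were then 0.96 ± 0.26 for Dsc2, -1.05 ± 0.36 for Jup, -0.71 ± 0.34 for Pkp2, -0.24 ± 0.21 for Dsg2, 0.26 ± 0.15 for Dsp (1435493_at), 0.28 ± 0.22 for the bright Dsc3 probe set and 0.56 ± 0.54 for the dim one. The errors of all of these were wider than without the covariate. Centring each array on its median, which moves the median difference of all tested probe sets from -0.01 to -0.22, ended the calls of Dsp (0.10 ± 0.10) and of the bright Dsc3 probe set (0.13 ± 0.12). It left those of the brightest Dsc2, Jup, Pkp2 and Dsg2 probe sets.

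**Figure D5:**
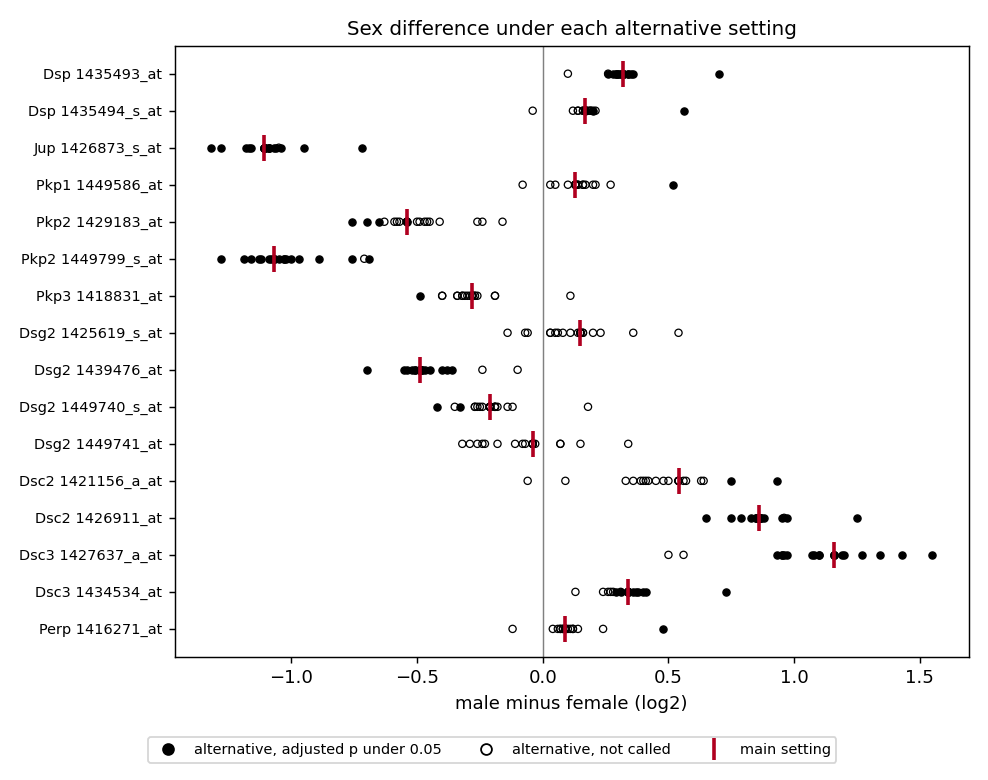
Male minus female difference (log2) of the 16 tested probe sets under each alternative setting (circles, filled where the limma adjusted p was under 0.05) and under the main setting (red bar). The circles of the brightest Jup, Pkp2 and Dsg2 probe sets stay below 0 and those of the bright Dsc2 and Dsc3 probe sets stay above it.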

How the data were processed

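The authors deposited linear intensity values made with GCOS, per the submitters' processing notes, which give no version. The 2% trimmed mean was 1500.0 in every column, and no further normalization was applied. Sample titles gave the sex. From the deposited intensities log2(intensity + 16) was computed. After leaving out 64 control probe sets, the 22519 with a mean log2 value of at least the median of such means (7.77) were tested. Sex was fitted with limma (version 3.58.1, R 4.3.3, eBayes with trend), with Benjamini-Hochberg adjustment over all of them at 0.05; the code was tested on simulated data. The brightest tested probe set stood for a gene. Within-array differences and array measures were compared by exact permutation tests. Every member probe set is given; of each wider list, its counts, up to 3 called genes with the largest differences and genes needed to read them. The members and lists were chosen with earlier results of these data known. Same-numbered samples were not paired (correlations of their deviations from the group means were -0.13, -0.08, 0.04 and -0.03). Alternatives were quantile and median scaling, pseudocounts of 1 and 64, other filters, variance models, array weights, the replicate block, the 18S covariate, means of probe sets and leaving out arrays. The beta-actin covariate and the epithelial reference were added after seeing the data.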

Additional observations from a re-analysis of the deposited data

Results flagged for a closer look

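Of 44 groups of 4 arrays examined, 1 for each sex and desmosome probe set, 2 held an array apart from the other 3; chance alone flags about 1 in 20 such groups. The Jup probe set (1426873_s_at) read 355 on female replicate 3, beside 426.2 to 442.0 on the other female arrays; all 4 lay above the males, and without this array Jup was still called. The Dsp probe set below the filter (1427610_at) read 55.5 on male replicate 1, beside 84.0 to 90.2 on the other male arrays.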

How the results depend on the processing

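The 7 called desmosome probe sets kept their sign under every alternative that tested them. Counts below are given as higher in males and higher in females; they were 4206 and 4922 for all tested probe sets, 4 and 3 for desmosome probe sets, 2 and 3 for desmosome genes, and 6 and 14 for the junction and epithelial genes. With each array centred on its median these became 2375 and 7588 (23.8% of calls higher in males in place of 46.1%), 2 and 6, 1 and 4, and 3 and 27. At the upper-quartile filter, which tests 8 desmosome probe sets, 2476 of all probe sets were higher in males; 1 desmosome probe set, 1 desmosome gene and 8 junction and epithelial genes were higher in females. Without a filter and without a variance trend 1 desmosome gene was higher in males. With the 18S covariate the limma counts were 251 and 163, 0 and 0, 0 and 0, and 2 and 0 (2 desmosome probe sets and 6 junction genes higher in females at an unadjusted p under 0.05). Without male replicates 1 and 3 together, 2 desmosome probe sets and 1 gene were higher in males. Relative to the mean of the epithelial markers, which moves the median difference of all tested probe sets to 0.38, the counts were 10100 and 1242, with 8 desmosome probe sets and 5 genes higher in males and 21 and 4 junction and epithelial genes; the Dsg2 difference was then -0.10 (limma adjusted p = 0.505). Leaving out 1 array at a time gave 1 to 3 desmosome genes and 3 to 5 desmosome probe sets higher in males, and 3 to 4 probe sets higher in females; the bright Dsc3 call ended without female replicate 1 or 2 or male replicate 3 or 4. With the replicate number as a block (replicate block), 3910 and 4550 of all probe sets were called and the 7 called desmosome probe sets kept their calls, while that of Dsg1a ended. Averaging the tested probe sets of each gene gave limma calls higher in males for Dsp, Dsc2 and Dsc3. Their differences were 0.24 ± 0.07 (limma adjusted p = 0.0106), 0.70 ± 0.14 (0.00138) and 0.75 ± 0.19 (0.00561). Jup (-1.11 ± 0.18, 0.000343) and Pkp2 (-0.81 ± 0.18, 0.00319) were lower, and Dsg2, Pkp1, Pkp3 and Perp were not called. Dim and bright probe sets weigh the same in these means. Apart from the effect of fewer tested probe sets, the cause of these changes was not tested. Dim probe sets, such as that of Jup in males, limit the precision of their differences.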
